A study of Equus caballus with 6 samples.

Results

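Transcripts of red cells and platelets were followed in RNA from the buffy coat, the white layer between plasma and packed red cells in centrifuged blood. The genes were HBB and HBA2 for red cells and ITGA2B, SELP and SPARC for platelets, and they were chosen by name with earlier before-and-after values of the same arrays in view. A probe belonged to a gene if it carried a RefSeq transcript of that horse gene, which gave 12 of the 43603 probes for 5 of the 870 genes that could be named. HBB, HBA2, ITGA2B and SELP had 1 probe each, and SPARC had 8. Of the 12 probes, 7 passed the filter on dim probes (marked as clearly over background by the scanner software on 3 or more arrays), and these cover all 5 genes.

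The 6 samples came from 3 neutered male warmblood horses, numbered 1, 2 and 4 in the labels, each sampled before and after exercise. The labels give their ages as 11, 7 and 15 years, while the design text speaks of horses of 9 to 17 years, so the age of horse 2 is not settled. The samples after exercise carry a time of 60 min in their labels, while the protocol speaks of blood drawn right before and right after, and the kind of exercise is not given. All 6 samples are buffy coat of EDTA blood from untreated animals, collected by pipette, and the labels name no step that removes red cells or platelets. The question posed by the labels is what differs in circulating leukocytes after exercise.

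Haemoglobin is built from alpha chains, encoded by HBA2 and its neighbour HBA, and beta chains, encoded by HBB. Mature red cells have no nucleus, and their remaining globin RNA stems from the precursor cells in which it was made; horses are known for releasing hardly any reticulocytes, the young RNA-rich red cells, into the blood. Platelets are fragments of megakaryocytes and carry megakaryocyte RNA, and the horse spleen holds a reserve of red cells that it releases during exercise. In a bulk sample, more cells of a type and more RNA per cell cannot be told apart.

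Each sample was hybridised to 1 array. Levels are given on the log2 scale relative to the 75th percentile of all non-control spots of the same array, so that 0 is a spot at that percentile and a difference of 1 is a doubling. Between 64.1% and 69.4% of the spots were well above background, and no spot was saturated. There were 2 slides: the arrays of horses 1 and 2 before exercise shared slide 2, and the remaining 4 shared slide 1. The changes in horses 1 and 2 therefore also cross slides, whose part in them was not tested, and the change in horse 4 lies within slide 1.

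The globin genes differed more across the horses than between before and after exercise, with horse 2 far below the others. The means of horses 4 and 1 differed by 1.76 for HBB and 1.85 for HBA2. Both values were smaller than the change after exercise in horse 2, given below. HBB, the beta chain, had levels of 5.70, 1.14 and 7.70 before exercise in horses 1, 2 and 4, and of 6.60, 3.94 and 8.13 after exercise. Horse 4 was highest and horse 2 lowest at both times, and no array of 1 horse reached into the range of another. How many of all probes kept the horses apart in this way was not counted. From the lowest to the highest array HBB spanned 6.99 on the log2 scale, a 127-fold range. HBA2, an alpha chain, gave 5.35, 1.40 and 7.63 before and 6.27, 3.56 and 7.69 after exercise, which is the same order of the 6 arrays and a 78.3-fold range. Among 29351 probes measured on all 6 arrays, 8.31% had a range of at least 2 on the log2 scale.

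**Figure D1:**
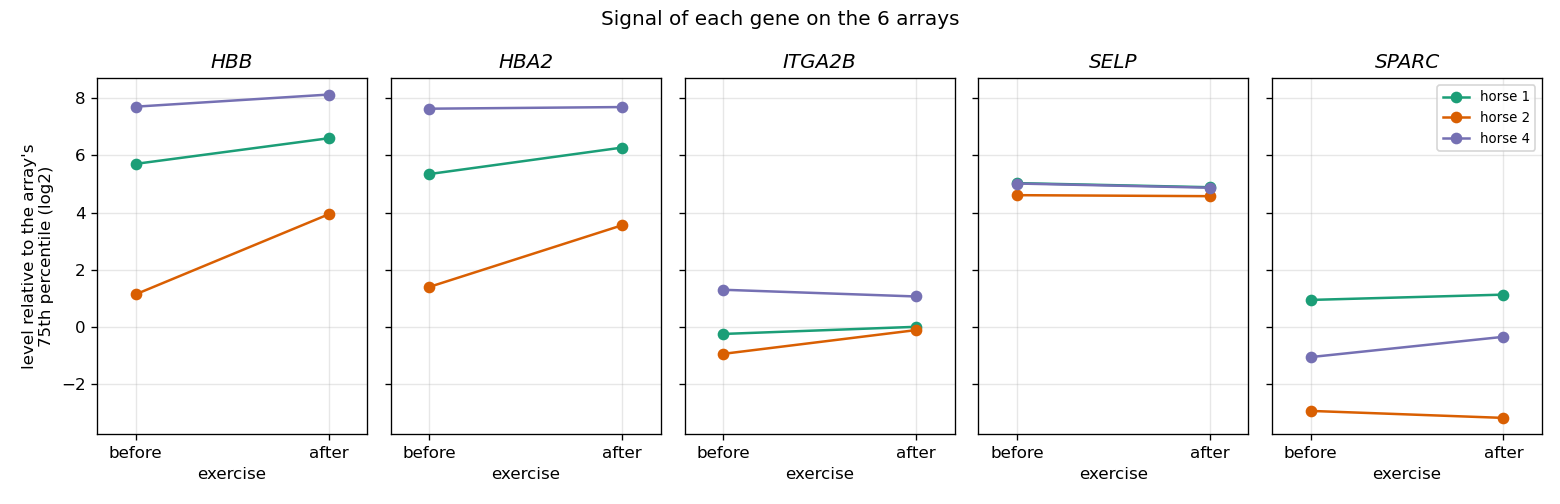
Level of the brightest probe of each gene (vertical axis, log2 relative to the array's 75th percentile) before and after exercise, with 1 line per horse; each point is 1 array. The lines of HBB and HBA2 lie apart by horse, with horse 4 on top and horse 2 at the bottom, and the lines of SELP are almost flat. Levels of different genes come from different probes and are not comparable.

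Both globin genes were higher after exercise in each horse, by unequal amounts. HBB changed by 0.90 in horse 1, 2.80 in horse 2 and 0.42 in horse 4, or 1.86-fold, 6.95-fold and 1.34-fold. Its mean change was 1.37 ± 1.26 (SD, n = 3 horses). HBA2 changed by 0.93, 2.16 and 0.06 in the same order, with a mean of 1.05 ± 1.06 (SD, n = 3). The horse with the lowest globin level before exercise thus had the largest change, and the horse with the highest level the smallest. Such an order is partly built in, because the change subtracts the level before exercise. The changes of both genes helped to choose the genes and carry no test of their own. Among all probes measured, 17.3% were higher in all 3 horses and 11.5% lower, and limma called 0 of 29570 probes (0%) between before and after, none of the 5 genes among them; 855 probes (2.89%) had an unadjusted p under 0.05.

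Horse 2 carried most of the mean. Without it the mean change was 0.66 for HBB and 0.49 for HBA2. On slide 1 alone, where the array of horse 4 is the lone one from before exercise, the mean of the 3 arrays after exercise minus that array was -1.48 for HBB and -1.79 for HBA2. Even after exercise, the globin levels of horses 1 and 2 lay below that of horse 4 before exercise.

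The small change in horse 4 depended on the scaling of its arrays. Before scaling, its HBB signal went from 365788 to 314529 and its HBA2 signal from 348184 to 232389, while the 75th percentile of the array went from 1753 to 1124. Quantile normalization, which forces the same distribution on each array, gave -0.11 for HBB and -0.47 for HBA2 in this horse. The 500 probes nearest in brightness had a median change in horse 4 of 0.21 for HBB and 0.18 for HBA2. Relative to them the values were 0.21 and -0.13. These 500 probes were matched on mean level over the arrays. In horse 4, HBB and HBA2 lay 2.17 to 2.59 above their own means. Their levels there, 7.63 to 8.13, were like those of the ferritin genes FTH1 and FTL, 7.58 to 8.34. The 500 probes nearest to these had a median change of 0.53 in horse 4, above 0.42 for HBB and 0.06 for HBA2. In horses 1 and 2 HBB and HBA2 were higher after exercise under each of the 5 scalings. The lowest of these changes was 0.84, for HBB in horse 1 with normexp background correction. The HBB and HBA2 probes had 1 spot per array, none saturated and none marked as an outlier, at up to 52.1% and 43.0% of the saturation value. For scale, 7 probes of the brightest 10% that were printed 5 times per array had a median SD of 0.06 between their spots.

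**Figure D2:**
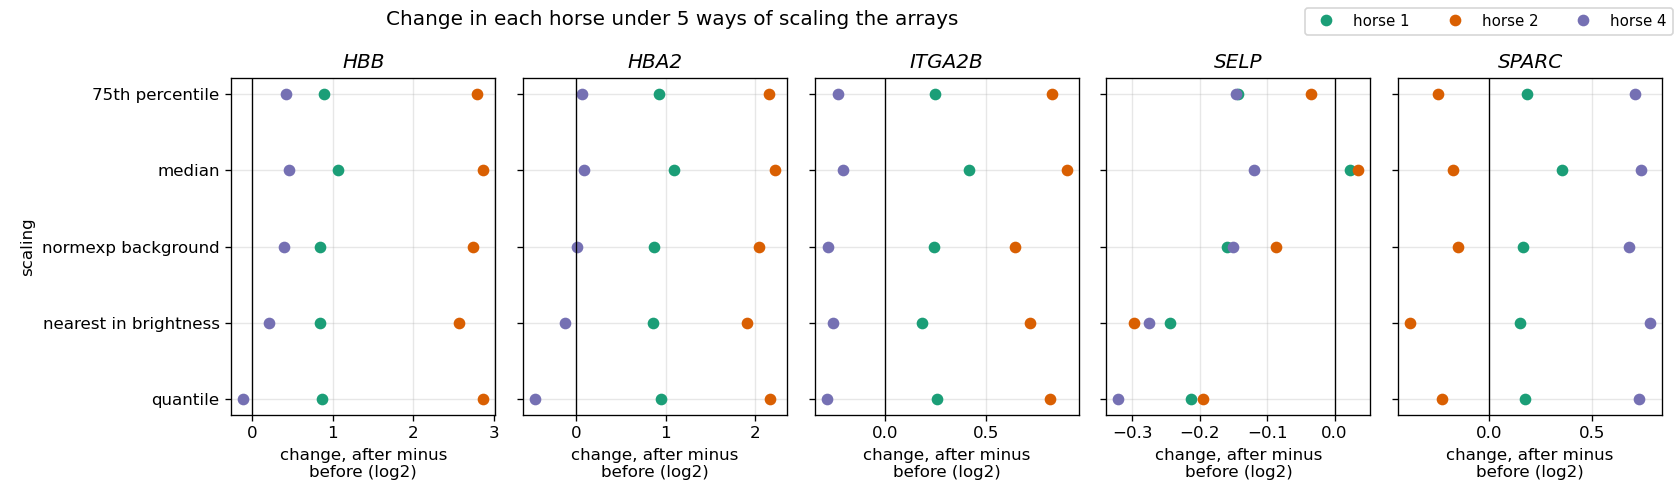
Change after exercise in each horse (horizontal axis, log2, with its own range in each panel) for the 5 genes under 5 ways of scaling the arrays (rows); each dot is 1 horse. The dots of horses 1 and 2 stay to the right of 0 for HBB, HBA2 and ITGA2B, and the dot of horse 4 crosses 0 for HBB and HBA2 but not for ITGA2B.

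Other genes of red cells gave little to set beside the globins. Of 57 erythroid genes listed, 7 could be named on the array and 3 passed the filter on dim probes: HBB, HBA2 and SLC2A1, a glucose transporter that many blood cells make. SLC2A1 did not follow the globins: it changed by -0.65, -0.83 and -0.43 in horses 1, 2 and 4, on a probe above background on 5 arrays. SLC4A1, the anion exchanger of the red cell membrane, was not well above background on any array with any of its 5 probes, and neither was HBZ, the embryonic alpha-like chain, with its 1 probe. TFRC, the transferrin receptor of haemoglobin-making precursors, was below the mark on all 6 arrays too, and EPO, the hormone that drives red cell formation, reached it on at most 1 array with any probe. The HBZ and SLC4A1 probes were below the mark on the arrays of horse 4 as well, where the globins were highest. No probe was named as HBA, the alpha gene next to HBA2 in the RefSeq table, so how far the HBA2 probe also reads HBA is not known here.

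Of 20 genes listed for haem and iron, 5 were named on the array and 3 were kept: FTH1, FTL and SLC11A1. TFRC, given above, and TF, the iron carrier of plasma, did not pass; TF was above background on 2 arrays. FTH1 and FTL encode the heavy and light chains of ferritin, the iron store of cells. FTH1 had levels of 7.81, 7.49 and 7.91 before and 7.86, 7.71 and 8.34 after exercise in horses 1, 2 and 4. FTL had 7.11, 7.09 and 7.58 before and 7.41, 7.32 and 7.78 after. Both were higher after exercise in all 3 horses, by 0.23 ± 0.19 and 0.24 ± 0.05 (SD, n = 3), a direction shared by the 17.3% of probes given above. The 500 probes nearest to them in brightness had median changes of -0.02, 0.20 and 0.53 in horses 1, 2 and 4, and relative to these the mean change was -0.0055 ± 0.085 for FTH1 and 0.0017 ± 0.33 for FTL (SD, n = 3). SLC11A1, an iron and manganese transporter of phagocytes, changed by 0.63, -0.18 and 0.78. The median change of the 3 kept genes was 0.24, against 0.04 over all probes, most of which are dimmer.

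Of the 3 platelet genes, ITGA2B had the horse order of the globins. It encodes the alpha IIb chain of the platelet fibrinogen receptor. Its levels were -0.25, -0.94 and 1.30 before exercise in horses 1, 2 and 4, and 0.0037, -0.11 and 1.06 after exercise. Horse 4 was again highest at both times and horse 2 lowest, although the arrays of horses 1 and 2 overlapped. It changed by 0.25 in horse 1, 0.83 in horse 2 and -0.23 in horse 4, with a mean of 0.28 ± 0.53 (SD, n = 3). Without horse 2 the mean was 0.0075. The order of the changes, largest in horse 2 and smallest in horse 4, was that of HBB and HBA2, and 27.6% of all probes measured had this order. On slide 1 alone the difference was -0.98.

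ITGB3, the beta chain with which alpha IIb forms the receptor, could not be followed: each of its 5 probes was well above background on at most 1 of the 6 arrays. Of 51 platelet genes listed, 7 were named on the array and 6 passed, namely ITGA2B, SELP, SPARC, VWF, TGFB1 and CLU. Of these 6 genes, 0 were higher and 1, SELP, was lower in all 3 horses, and their median change was 0.22. The signal summed over the 6 genes ran from 4.76 to 5.49 on the log2 scale before exercise and from 4.83 to 5.31 after, so the groups overlapped. SELP made up 71.8% to 89.7% of that sum; without it the sum ran from 1.48 to 3.67 before and from 2.23 to 3.39 after exercise, and the groups overlapped again.

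SELP, P-selectin, was almost constant. This adhesion protein is stored in platelet granules and in endothelial cells and, once on the surface, binds leukocytes through SELPLG. Its levels were 5.03, 4.61 and 5.02 before exercise in horses 1, 2 and 4, and 4.89, 4.57 and 4.87 after exercise. The whole range over the arrays was 0.46 on the log2 scale, or 1.37-fold, and only 12.9% of probes had a range as small or smaller. It was lower after exercise in each horse, by 0.14, 0.03 and 0.15, with a mean change of -0.11 ± 0.06 (SD, n = 3). Each array carried 5 spots of this probe, whose SD ran from 0.03 to 0.06 on the log2 scale, and the change of horse 2 lay within that range. The SD is that of single spots, and the mean over the spots, from which the change is taken, scatters less. With each array scaled to its median the changes in horses 1 and 2 were 0.02 and 0.04. With quantile normalization they were -0.21, -0.20 and -0.32 in horses 1, 2 and 4, and relative to the 500 probes nearest in brightness -0.24, -0.30 and -0.27; with normexp they were lower in all 3 horses too. Of the 5 scalings, median scaling was thus the one without a shared direction. Horse 2 was lowest at both times, by 0.42 before and 0.31 after exercise relative to horse 1.

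SELPLG, the leukocyte partner of P-selectin, did not share this flat profile. It changed by 0.61, 1.01 and -0.49 in horses 1, 2 and 4, with levels from -1.18 to 0.24, and so ran with ITGA2B in the direction of each horse, as did 24.1% of all probes measured that were higher in horses 1 and 2 and lower in horse 4. CD40, the receptor for the ligand CD40LG, changed by -0.51, -0.38 and 0.59. These were the 2 of 21 listed genes for platelet partners and clotting that the array named, and their median change was 0.14.

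SPARC, a secreted matrix protein held in platelet granules and also made by stromal and endothelial cells, followed the horses in another order. Its brightest probe had levels of 0.94, -2.94 and -1.06 before exercise in horses 1, 2 and 4, and 1.13, -3.18 and -0.35 after exercise. Here horse 1 was highest, horse 4 in between and horse 2 lowest, and the arrays spanned a 19.9-fold range. The horses did not overlap, a pattern that was not counted over all probes. The change was 0.19, -0.24 and 0.71, with a mean of 0.22 ± 0.48 (SD, n = 3), so that horse 4, where ITGA2B was lower after exercise, had the largest change. The other 2 kept probes gave changes of -0.16, -0.47 and 0.58 and of 0.05, -0.53 and 0.58. The 3 probes thus differed in sign in horse 1 and shared the sign in horses 2 and 4.

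The remaining 5 SPARC probes were well above background on only 1 or 2 arrays, and those arrays were all of horse 1. Their levels there lay between -6.37 and -4.97, and their levels in the other horses near the floor of the array. All 8 probes were therefore highest in horse 1, the horse with the highest SPARC level on the 3 bright probes. Whether the bright and dim probes read the same transcript is not known here.

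**Figure D3:**
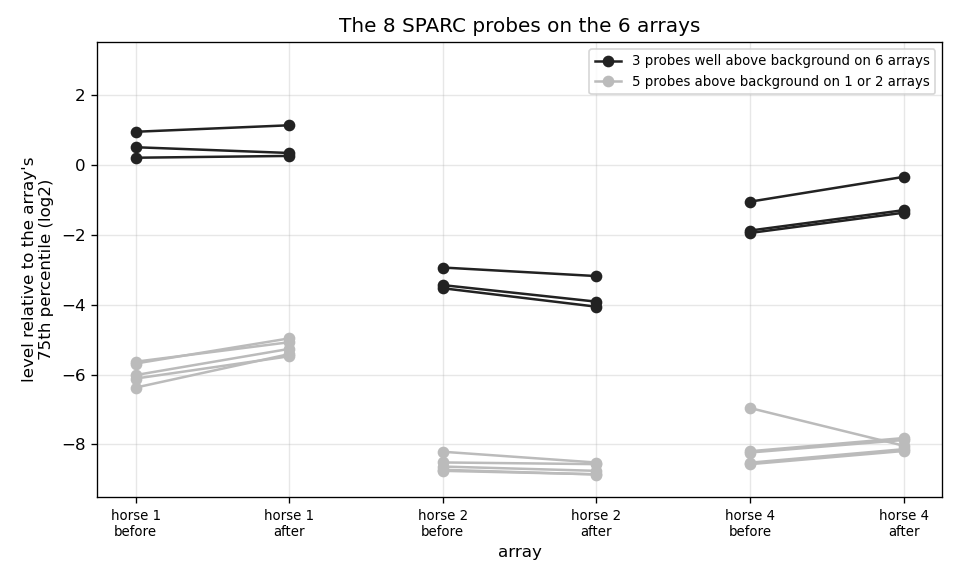
Level of each of the 8 SPARC probes (vertical axis, log2 relative to the array's 75th percentile) on the 6 arrays, with a line joining the arrays of 1 horse. The 3 bright probes run in parallel and are highest in horse 1 and lowest in horse 2; the 5 dim probes are highest in horse 1 and low in the others.

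Endothelial and stromal cells also make SELP or SPARC, and their other markers were mostly dim. Of 18 endothelial genes listed, 4 were on the array; SELE and VCAM1 did not pass, while PECAM1, which leukocytes and platelets make too, and EDN1 did. PECAM1 lay between -0.87 and -0.31, with changes of 0.02, -0.13 and 0.27, and was lowest in horse 1, where SPARC was highest. EDN1, endothelin, was above background on 3 arrays. Its horse means were -5.37, -7.18 and -6.47 in horses 1, 2 and 4, which is the horse order of SPARC. Of 15 stromal genes listed, 4 were on the array; the proteoglycan genes DCN and LUM did not pass, and BGN, a further proteoglycan gene, had levels from -5.44 to -3.81, highest in horse 2 before exercise. TAGLN, a smooth muscle gene, passed on 3 arrays. In horses 1, 2 and 4 the horse means were -4.32, -4.54 and -5.09 for BGN, highest in horse 1. For TAGLN they were -5.97, -5.32 and -6.84, highest in horse 2. The summed signal of the 2 kept genes ran from -0.82 to -0.28 before and -0.77 to -0.44 after exercise for the endothelial list, and from -4.91 to -3.41 and -4.49 to -4.07 for the stromal list.

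Set side by side, the erythroid and platelet signals varied together in part. The Pearson r over the 6 arrays, used here as a measure of likeness without a test because the arrays are 3 animals sampled 2 times each, was 0.997 between HBB and HBA2. Between HBB and ITGA2B it was 0.89, between HBB and SELP 0.77 and between HBB and SPARC 0.66. Among the platelet genes themselves it was 0.56 for ITGA2B and SELP, 0.83 for SELP and SPARC and 0.27 for ITGA2B and SPARC. Of the other kept platelet genes of the list, VWF had 0.83 with HBB and 0.99 with ITGA2B, TGFB1 0.87 and 0.89, and CLU -0.47 and -0.76. By the root mean square difference of levels centred on each gene's mean, VWF lay nearer to HBB (1.65) than ITGA2B (1.75) or SPARC (1.79), so which platelet gene is most like the globins depends on the measure. The value for HBB and SELP was 0.0079 after quantile normalization and 0.90 with scaling to the median, there above the 0.88 of HBB and ITGA2B, while that for HBB and ITGA2B stayed between 0.87 and 0.89 over the 4 scalings tried. A high r over 6 arrays was not rare: 6.84% of all other probes measured reached at least 0.9 with HBB, and 5.90% did so with ITGA2B and 1.22% with SPARC.

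What the 5 genes shared was a low level in horse 2. Its mean was the lowest of the 3 horses for each of them, as it was for 42.8% of all probes measured. For HBB, HBA2, SELP and SPARC both arrays of horse 2 lay below all 4 other arrays, which held for 13.9% of probes. The order horse 4, horse 1, horse 2 was found for HBB, HBA2 and ITGA2B and for 31.0% of probes. The low level of horse 2 held within each slide: HBB was 4.56 lower than in horse 1 on slide 2 and 2.66 lower on slide 1, HBA2 3.95 and 2.72, and SPARC 3.88 and 4.31. For ITGA2B these differences were 0.70 and 0.12, and for SELP 0.42 and 0.31. The low SELP level in horse 2 was relative to the 75th percentile. Before scaling, the SELP signal was highest in horse 2 before exercise, at 62115.7 against 58743.5 in horse 1 before exercise. The 75th percentiles of those arrays were 2536 and 1797. With quantile normalization the range of the SELP horse means was 0.22, against 0.37 with the 75th percentile.

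**Figure D4:**
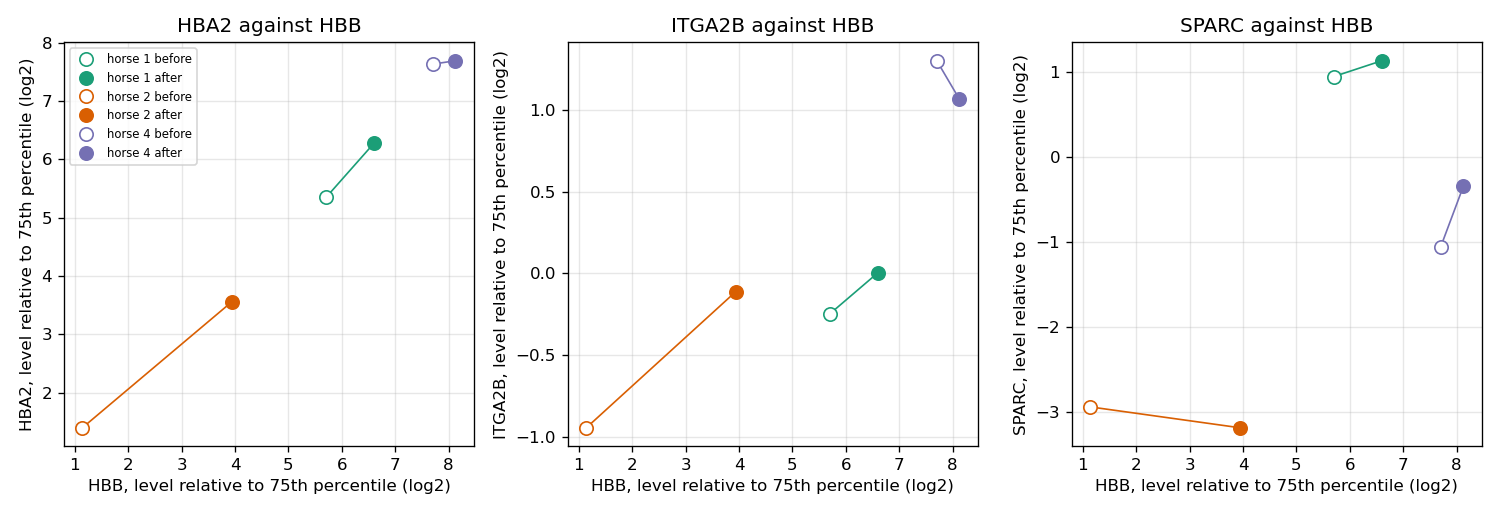
Level of HBA2, ITGA2B and SPARC (vertical axes) against that of HBB (horizontal axis), both log2 relative to the array's 75th percentile; open circles are arrays before and filled circles arrays after exercise, with a line per horse. HBA2 follows HBB along a single line, ITGA2B follows it except that the line of horse 4 points down, and SPARC is highest in horse 1 although HBB is highest in horse 4.

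Within horses, the signs of the changes differed from pair to pair. HBB and HBA2 had the same sign of change in 3 of 3 horses. HBB and ITGA2B shared it in 2, and HBB and SPARC in 2, but not the same 2: ITGA2B differed in horse 4 and SPARC in horse 2. HBB and SELP shared it in 0. Averaged over HBB and HBA2 the change was 0.91, 2.48 and 0.24 in horses 1, 2 and 4, and averaged over the 3 platelet genes 0.10, 0.18 and 0.11. The near-equal platelet averages came from opposite changes of ITGA2B and SPARC in horses 2 and 4. Some signs depended on the scaling. Relative to the probes nearest in brightness averaged over the arrays, HBB and HBA2 differed in sign in horse 4 (0.21 and -0.13). With median scaling SELP changed by 0.02 and 0.04 in horses 1 and 2, and so shared the sign of HBB there.

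The horses were also compared in a fit over all probes. The genes were chosen with values of the same arrays in view, so these p-values are no independent support. An F-test of limma that allowed for exercise called 70 of 29567 probes (0.237%), and 0 of the 5 genes were among them. SPARC came closest, with horse means of 1.04, -3.06 and -0.70 in horses 1, 2 and 4 (limma, adjusted p = 0.057), and its other 2 kept probes had adjusted p = 0.069 and adjusted p = 0.071. HBA2 had means of 5.81, 2.48 and 7.66 (adjusted p = 0.11) and HBB of 6.15, 2.54 and 7.92 (adjusted p = 0.13). ITGA2B had means of -0.12, -0.53 and 1.18 (adjusted p = 0.20) and SELP of 4.96, 4.59 and 4.94 (adjusted p = 0.47). With normexp background correction, adjusted p was 0.048 for HBA2, 0.021 for SPARC and 0.061 for HBB, so the first 2 would have been called. The count of probes called between horses was 91 under that setting.

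Among 269 named genes with a range of at least 1 on the log2 scale, other than the 5 themselves, the one most like ITGA2B was VWF, von Willebrand factor, with r = 0.99 over the 6 arrays. VWF is a clotting protein of platelets and endothelial cells. It had levels of 0.56, 0.03 and 2.91 before exercise in horses 1, 2 and 4, and of 1.01, 0.98 and 2.52 after exercise. It changed by 0.45, 0.94 and -0.38, thus in the direction of ITGA2B in each horse, and it was well above background on all 6 arrays. TLR9, a sensor of microbial DNA, followed with r = 0.97, then the actin gene ACTB with 0.96 and, at 0.95, LOC100033969 and APOBEC3Z2A-Z2, an antiviral deaminase. TGFB1, a growth factor that platelets and leukocytes both hold, had changes of 0.34, 0.64 and -0.32, the same signs again. VWF was picked by its likeness on these same arrays, so its shared signs are no separate support. These signs were found for 24.1% of all probes measured. Among the kept leukocyte genes given below, CD14, CD2 and LTF had them, and MMP9, GNLY and CD68 did not. By the root mean square difference of the centred levels the nearest were DDIT4 and VWF, both at 0.28, and then TIMP1, GNLY and IL7R. DDIT4 is induced by stress, TIMP1 inhibits matrix proteases, GNLY is a cytolytic granule protein and IL7R a lymphocyte cytokine receptor.

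The genes most like HBB were sought without HBA2, and the erythroid list left SLC2A1 as the one other gene that could appear. By r the nearest were the chemokine gene CCL3 and the selenoprotein gene SELENOH, both at 0.99, and CPT1A, CD28 and ACTB, each at 0.98. Their ranges were far smaller than that of HBB: CCL3 ran from -1.13 to 1.18 and ACTB from 4.49 to 5.92, with ACTB changing by 0.28, 0.55 and 0.10 in horses 1, 2 and 4. By the root mean square difference the nearest included the serine protease inhibitor SPI2 at 0.99, SAA1 at 1.14, SAA at 1.22 and CCL3 at 1.62, against 0.24 for HBA2. SAA1 was well above background on only 3 arrays.

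The genes most like SPARC were TNFAIP6, a hyaluronan-binding protein induced in inflammation, with r = 0.99, and IFI27, an interferon-induced gene, with 0.98. LOC100066253 followed with 0.96, then the interferon-induced chemokine CXCL10 and the macrophage growth factor receptor CSF1R, both with 0.93. IFI27 had levels of 4.09, 1.71 and 3.18 before and 4.25, 2.10 and 3.66 after exercise in horses 1, 2 and 4, which is the horse order of SPARC. It changed by 0.17, 0.39 and 0.48, and so differed in sign from SPARC in horse 2. Of the platelet list, VWF, TGFB1 and CLU could appear in this search, and none of them was among the 5 nearest by either measure. ITGA2B and SELP were left out of it, and had r of 0.27 and 0.83 with SPARC.

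**Figure D5:**
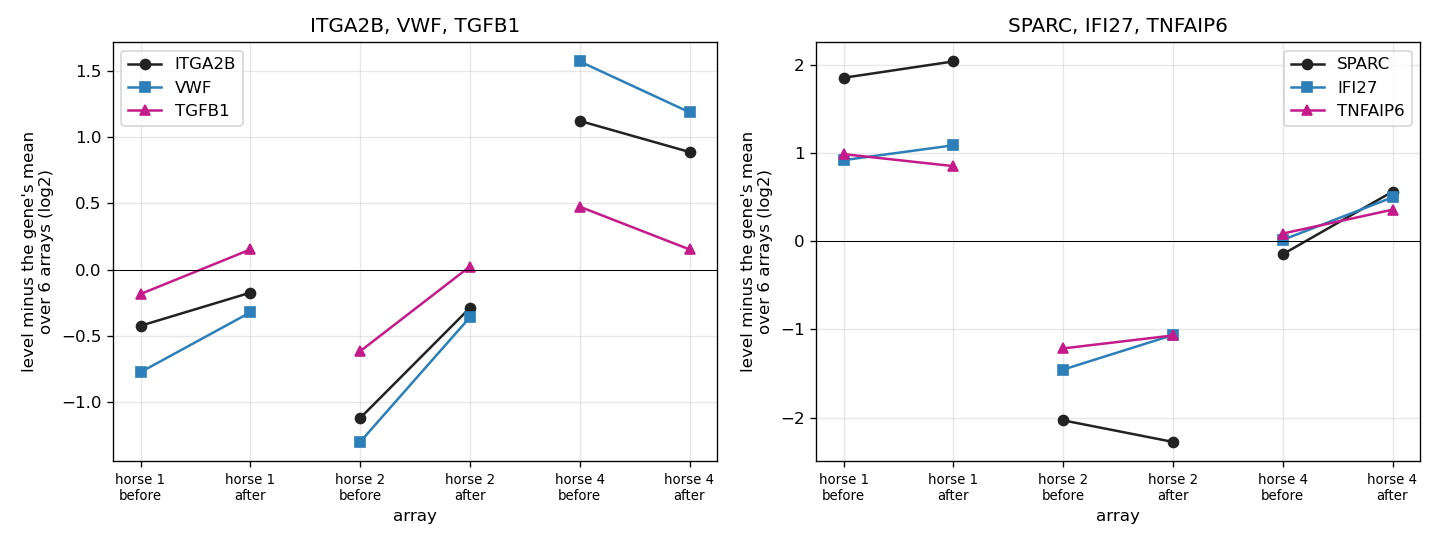
Level of each gene minus its own mean over the 6 arrays (vertical axis, log2), with a line joining the arrays of 1 horse: ITGA2B with VWF and TGFB1 (left), and SPARC with IFI27 and TNFAIP6 (right). The left genes are highest in horse 4 before exercise and lower there after exercise, when TGFB1 is about equal in horses 1 and 4. The right genes are highest in horse 1 and lowest in horse 2.

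Leukocyte genes, of the cells named in the labels, differed among themselves. Of 25 listed, 6 were named on the array and all 6 passed: CD14, MMP9, GNLY, CD2, LTF and CD68. The lactoferrin gene LTF of neutrophil granules changed by 0.38, 2.25 and -1.16 in horses 1, 2 and 4, with levels of 0.25, -0.92 and 2.60 before and 0.63, 1.33 and 1.44 after exercise. Before exercise it had the horse order of HBB, and its change in horse 2 was close to that of HBA2, but in horse 4 it was lower after exercise. CD14, the monocyte endotoxin receptor, changed by 0.79, 0.84 and -0.77, and CD2, of T and NK cells, by 0.23, 0.48 and -0.47. MMP9, a neutrophil protease, and GNLY were higher in all 3 horses, by 0.15, 0.41 and 0.12 and by 0.80, 0.57 and 0.38, and CD68, of monocytes, changed by 0.76, -0.44 and 0.48. The summed signal of the 6 genes ran from 4.12 to 5.47 before and from 4.83 to 5.49 after exercise, and its part in the ITGA2B and globin values was not tested.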

How the data were processed

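Total RNA of 6 buffy coat samples was labelled with Cy3 and read on 1-colour Agilent horse arrays, per the labels. The deposited spot intensity was made by Feature Extraction 10.10.1.1, per the file headers; it is background-subtracted and not normalized between arrays. The grid names the build EquCab1, and no coordinate is used. The log2 of the intensity minus the 75th percentile of the 43803 non-control spots of its array was taken, outlier spots were dropped and spots of a probe averaged. Probes well above background on at least 3 of 6 arrays were kept (29571 of 43603). Accessions were matched without versions to RefSeq genes of the assembly TB-T2T, which named 1979 probes; 578 genes were kept, each by its brightest kept probe on all arrays. Groups and horses were compared with limma 3.58.1 (R 4.3.3) in two-sided tests; p-values were adjusted after Benjamini and Hochberg over all kept probes, with a threshold of 0.05, and the fits were tested on simulated data. Same-numbered arrays come from the same horse, and their deviations from the group means correlated with r of 0.36, 0.40 and 0.23 across probes; the main fit had no horse block. SDs are over 3 animals.

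The genes and lists were chosen with earlier results of these data known. The rule named the 5 genes, the kept genes of 6 lists (at most 5 a list by brightness) and the 5 genes nearest to HBB, ITGA2B and SPARC by r or, as an alternative, by root mean square difference. Of the genes this rule takes, 1 is not reported here. CLU, the leukocyte genes and the listed genes that were not kept were named after their values were seen. Alternatives were normexp correction (offset 50, on the median spot signal), quantile or median scaling, other filters, flagged spots kept, horse or slide as a block, slide 1 alone, the first column of 1 array (horse 4 before exercise) left out, all probes of a gene averaged, and each horse or array left out. The comparison with the 500 probes nearest in brightness, the platelet sum without SELP and the horse test with an array left out were chosen after seeing the data.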

Additional observations from a re-analysis of the deposited data

How the results depend on the processing

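With 3 horses and 1 spot per array for most genes, the precision is limited by the number of arrays. Leaving out a horse or an array moved the mean change between -0.48 and 2.80 for HBB, -0.65 and 2.47 for HBA2, -0.21 and 0.91 for ITGA2B, -0.25 and -0.0069 for SELP, and -0.75 and 1.41 for SPARC; the mean of HBB and HBA2 ran from -0.57 to 2.63 and that of the 3 platelet genes from -0.40 to 0.63. The highest HBB and HBA2 values came without the array of horse 4 before exercise and the lowest without that of horse 2 before exercise; such values mix the change with the difference between horses. Slide as a block and slide 1 alone gave the same values, because slide 2 holds no array from after exercise. Both set the 3 arrays after exercise against that of horse 4 before exercise, and so mix the change with the difference between horses. The values were -1.48 for HBB, -1.79 for HBA2, -0.98 for ITGA2B and -0.24 for SELP, -1.64 for the mean of HBB and HBA2 and -0.32 for the platelet mean. SELP and the platelet mean were -0.24 and 0.082 with quantile normalization, -0.020 and 0.22 with median scaling, and -0.27 and 0.042 relative to probes of like brightness; the cause was not tested. In limma, 0 probes were called after exercise; the count was 0 to 595 with a horse or array left out, 131 with slide as a block and 122 on slide 1 alone. With the horse as a block (replicate block) the count was 0, the mean changes were the same (1.37 for HBB), and no call changed. Between horses, the 70 called probes became 1 with quantile normalization, 255 without exercise in the model, 2 without the filter on dim probes, and 0 to 456 with an array left out. SPARC was then called with normexp (range of horse means 3.80, adjusted p = 0.021) and without exercise in the model (4.10, adjusted p = 0.015), and HBA2 with normexp (5.14, adjusted p = 0.048). Under normexp the count of probes called between horses was 91. With an array left out the range of horse means was 3.98 to 6.78 for HBB, 4.10 to 6.26 for HBA2 and 3.98 to 4.22 for SPARC. Such a fit leaves 1 array for that horse, and whether HBB, HBA2 and SPARC were called depended on which array was left out. ITGA2B and SELP were called under none of the 10 alternatives for the horses.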
